A study of Homo sapiens with 16 samples.

Results

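The transcripts described here are the RNAs that the GENCODE 29 annotation types as targets of nonsense-mediated decay. They were taken from a table of estimated counts per transcript in HCT116 cells, an established line from a human colon carcinoma, some of them labelled as depleted of NORAD, a long noncoding RNA. They were selected on type and on measured counts: a transcript was a member if it had this type and at least 20 counts in 3 or more libraries. That rule left 5022 transcripts of 3403 genes, out of 13081 transcripts of this type in the table and 60303 transcripts of any type past the same threshold. The rule used the level of each transcript in all 16 libraries and no contrast between groups. At the edge of the rule, 109 members had a third-highest count of 20, with mean counts of 4.31 to 16 over the libraries, and 95 transcripts left out had a third-highest count of 19, with mean counts of 4.38 to 16.6. All 16 libraries reached 20 counts for 1632 members, while 42 members reached it in wild-type libraries alone and 68 in knockdown libraries alone.

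Polyadenylated RNA was sequenced with strand-specific libraries from 20000 to 50000 cells each. The 6 groups were wild type and NORAD knockdown at 24 h (2 libraries each), 48 h (3 each) and 96 h (3 each). Knockdown used CRISPR interference (a Cas9 that cannot cut brings a repressor to a promoter) and was switched on with doxycycline at 0.5 µg/ml. The labels attach that treatment to every library, so whether the wild-type cells also received doxycycline or carried the repressor is not stated, and neither are the guide and the number of clones. Separate cultures are not stated for the replicates either, so p-values here reflect library-to-library spread alone, possibly technical.

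Nonsense-mediated decay is the pathway by which cells degrade mRNAs whose stop codon lies well upstream of the last exon-exon junction. The junctions carry exon junction complexes, and a ribosome that ends translation before the last of them leaves a complex that recruits UPF1, the central helicase of the pathway. Many genes for splicing factors and ribosomal proteins make such RNAs by alternative splicing, through an added exon, a skipped exon or a retained stretch of intron. The type is assigned from the position of the annotated stop codon and not from decay of the RNA, and no decay rate was measured here.

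The stop codons that define members on which the results turn are shown as the last 60 bases of the annotated coding sequence, 5′ to 3′, with the stop codon in capitals (sequences and positions from GENCODE 29 on GRCh38). The first 3 belong to members that passed the knockdown comparisons by their share of the gene's counts. The stop codons lie at chr5:134171010-134171012 (SKP1-212), chr15:88880543-88880545 (HAPLN3-202) and chr5:135360760-135360762 (H2AFY-210), all on the minus strand.
SKP1-212: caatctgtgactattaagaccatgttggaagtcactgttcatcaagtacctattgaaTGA
HAPLN3-202: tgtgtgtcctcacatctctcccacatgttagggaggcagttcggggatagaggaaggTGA
H2AFY-210: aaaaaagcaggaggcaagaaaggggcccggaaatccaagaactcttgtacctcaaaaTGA

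In SKP1-212 the stop codon stands in an exon of 88 bases that no protein-coding transcript of the gene holds, and it ends 29 bases into that exon. The stop codons of HAPLN3-202 and H2AFY-210 stand in extended or retained parts of exons. Members of splicing factor and ribosomal protein genes that changed with time in wild type are shown next, with stop codons at chr6:36599852-36599854 (SRSF3-203, plus strand), chr2:38749516-38749518 (SRSF7-208, minus), chr19:38841624-38841626 (HNRNPL-202, minus) and chr3:170868109-170868111 (RPL22L1-204, minus).
SRSF3-203: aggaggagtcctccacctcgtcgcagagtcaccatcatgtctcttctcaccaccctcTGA
SRSF7-208: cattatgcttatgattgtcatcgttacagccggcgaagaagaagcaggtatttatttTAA
HNRNPL-202: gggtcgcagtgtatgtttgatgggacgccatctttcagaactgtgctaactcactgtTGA
RPL22L1-204: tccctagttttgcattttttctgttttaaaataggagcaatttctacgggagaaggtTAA

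The members reach their early stop in several ways. A stop codon was annotated for 5014 of them, TGA in 3017, TAA in 1027 and TAG in 970, and it lay at least 50 bases before the last junction in 4978 and closer in 36. The median distance was 374 bases. In 2470 members (49.3%) the stop codon lay in sequence that protein-coding transcripts of the gene read in another frame. It lay in an exon absent from them in 1101 (22%), in an extended or retained part of an exon in 635 (12.7%) and at the stop of a protein-coding transcript, with a junction after it, in 571 (11.4%). It lay in an untranslated exon in 131 and in a gene with no protein-coding transcript in 106. The annotated coding sequence began before the transcript's first base in 1117 members, so their reading frame rests on the annotation.

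Most members were scarce. The median of the mean level was 1.20 CPM (counts scaled to library size, on the usual CPM scale) and the median share of the gene's counts, summed over the 16 libraries, was 4.15%. Of the 5022, 2772 had at least 1 CPM, 512 at least 10 and 22 at least 100. The share reached 50% of the gene in 266 members and 10% in 1485, and was under 5% in 2747. Shares are of counts and not corrected for transcript length.

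The highest members were compared per length. RPS3-216, of a small-subunit ribosomal protein, had 919 CPM per kilobase of transcript (mean of 16 libraries), followed by RACK1-224, of a ribosome-bound scaffold protein (820), RPS3-210 (670), FTH1-208, of the ferritin heavy chain (631), and RPL18-206, of a large-subunit ribosomal protein (557). Several of these held a large share of their gene. The share, of counts summed over the 16 libraries, was 64.1% for RACK1-224, 50.8% for RPS3-216 and 59.9% for B2M-212, of the light chain of MHC class I. The estimate divides reads between transcripts that share most of their sequence, and CIRBP-203 and CIRBP-212, of a cold-inducible RNA-binding protein, were listed with the same count in each library. Levels of near-identical transcripts are uncertain.

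In each library, the 5022 members together held 9.18% to 11.0% of the counts of their genes. The share was higher at 24 h than later in both genotypes. It was 10.5% and 10.6% in wild type at 24 h, 9.18%, 9.43% and 9.23% at 48 h, then 9.45%, 9.31% and 9.47% at 96 h. In the libraries labelled knockdown it was 11.0% and 10.9% at 24 h, above both wild-type libraries. At 96 h it was 9.48%, 9.61% and 9.64%, where the lowest (9.477%) was barely above the highest wild-type library (9.471%). At 48 h the knockdown libraries had 10.0%, 10.3% and 9.29%, so replicates 1 and 2 lay above wild type and replicate 3 lay inside its range. Of nuclear-encoded counts the members held 2.90%, 2.95% and 2.99% in knockdown at 96 h. Wild type had 2.95%, 2.92% and 2.91%, with overlap. Transcripts typed as retained introns showed the same arrangement at 48 h, with 5.73%, 5.29% and 4.18% of the matched counts in knockdown against 4.05%, 4.26% and 4.22% in wild type.

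**Figure D1:**
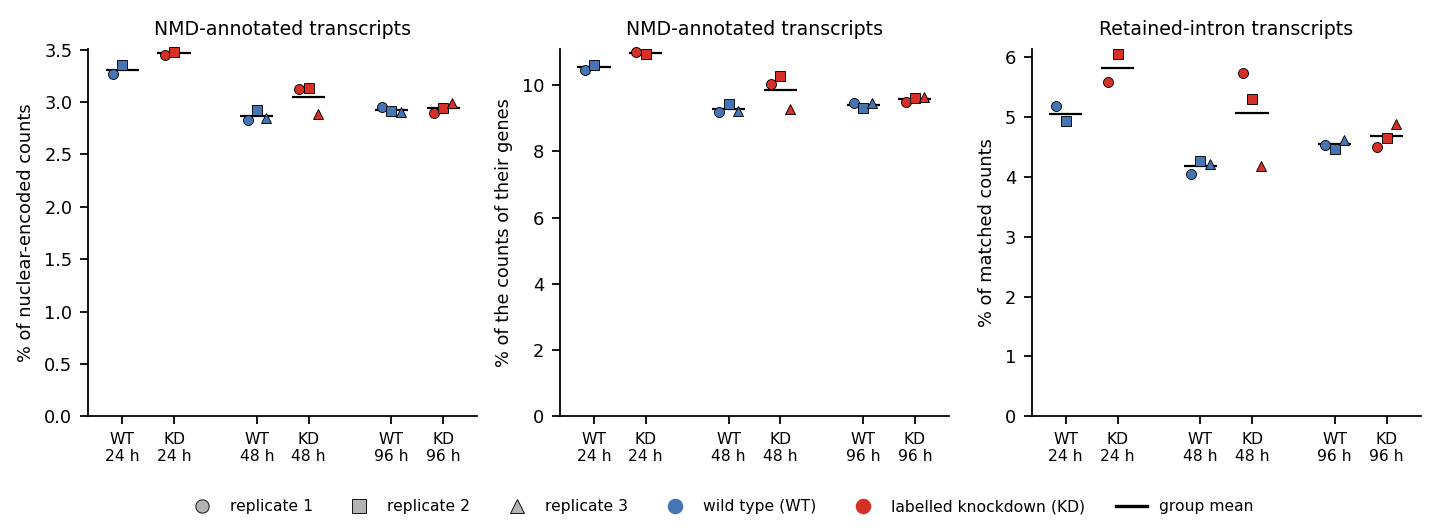
For each of the 16 libraries (points, by genotype and time on the x axes, bars for group means) the y axes give the 5022 members as a percent of nuclear-encoded counts and of the counts of their genes, and retained-intron transcripts as a percent of matched counts. Knockdown replicates 1 and 2 at 48 h stand above wild type in the share of their genes, and replicate 3 (9.29%) stands with it.

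Knockdown replicate 3 at 48 h stood apart from its 2 replicates in these transcripts, although NORAD was low in the group (mean 158 CPM in wild type and 21.5 in knockdown, log2 fold change -2.88, SE 0.11, adjusted p = 1.27e-13 by edgeR). The total counts of members that passed at 48 h, and some lists and members, are given with and without it. Other results at 48 h are given with it in the fit. NORAD fell at 96 h as well (183 to 72.9 CPM, log2 fold change -1.33, SE 0.10, adjusted p = 5.25e-08 by edgeR) and did not pass at 24 h (190 to 209 CPM, log2 fold change 0.14, SE 0.12, adjusted p = 0.523 by edgeR), so the 24 h libraries are called libraries labelled knockdown. Total estimated counts lay between 28391784 and 51853876, lowest in wild type at 24 h, and mitochondrial transcripts held 4.89% to 6.10% of the counts at 24 h against 10.4% to 17.4% later. The labels name no batch, so time and any unrecorded batch cannot be told apart. All 8 epithelial markers had at least 1 CPM in all 16 libraries, and their summed level was 6993 to 7334 CPM in wild type and 4452 to 5376 in knockdown at 48 h, against 5023 to 5537 and 6089 to 6437 at 96 h. At 48 h 4 of them fell (log2 fold changes of -0.64 for KRT8, -0.44 for KRT18, -0.72 for KRT19 and -0.49 for EPCAM) and CLDN3 rose by 0.35, and at 96 h 4 rose and 0 fell. Of 4 colon lineage markers only CDX2 had 1 CPM or more in every library. Of 9 markers of other cells 7 were under 1 CPM in every library. COL1A1, a collagen chain gene typical of fibroblasts, had at least 1 CPM in all 16 and rose at 48 h (log2 fold change 1.07, edgeR gene-level adjusted p = 1.57e-07). The summed level of the 9 was 34.4 to 35.5 CPM in wild type and 62.4 to 80.9 in knockdown at 48 h, nearly all of it COL1A1 (means 33.9 and 71.0 CPM). COL1A2, another collagen chain gene, had means of 0.12 and 0.333 CPM and did not pass (edgeR gene-level adjusted p = 0.104). The part of these markers in any result was not tested.

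Across the members, few levels passed the test in the knockdown comparisons. The test was edgeR's quasi-likelihood test over 60303 transcripts, with Benjamini-Hochberg adjusted p under 0.05 as the threshold. At 24 h 44 of 5022 members (0.876%) passed, 19 rising and 25 falling, where 2.57% of all transcripts passed. At 48 h 197 (3.92%) passed, 60 rising and 137 falling, beside 7.38% of all transcripts. At 96 h 15 (0.299%) passed, 7 rising and 8 falling, beside 0.932%. Of protein-coding transcripts 3.93%, 9.7% and 1.48% passed at the 3 times. Of retained-intron transcripts 0.803%, 5.06% and 0.12% passed, and of those typed as processed transcripts 0.621%, 3.49% and 0.287%. A rate below that of all transcripts was thus not particular to the members. The median log2 fold change of the members was -0.01, -0.02 and 0.00 at the 3 times, and over all transcripts it was 0.00, 0.03 and -0.01. The difference from wild type was not equal at the 3 times for 13 members by CPM (0.259%, beside 0.524% of all transcripts). By share the same held for 3 (0.0612%, beside 0.0558%), and at the gene level for 9.44% of genes. In bulk RNA, fewer cells that make a transcript and less of it per cell cannot be told apart.

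At 48 h the members that passed mostly moved with their gene. Of the 137 that fell at 48 h, 103 belonged to genes that fell in the gene-level test, 7 to genes that rose and 27 to genes that did not pass. Of the 60 that rose, 46 belonged to genes that rose. At 24 h 21 of the 25 that fell belonged to genes that fell, but of the 19 that rose only 7 belonged to genes that rose, 4 to genes that fell and 8 to genes that did not pass. At the gene level 33.2% of genes passed at 48 h, 17.6% at 24 h and 10.5% at 96 h. How many rose and how many fell changed with the scaling. With total counts in place of the trimmed mean of M-values, 26 rose and 8 fell at 24 h, and 94 rose and 93 fell at 48 h. Upper-quartile scaling gave 23 and 12 at 24 h and 89 and 107 at 48 h, and abundance-dependent scaling gave 20 and 11 at 24 h.

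FKBP10-206 fell most at 24 h among the members that passed there and were above 0 in both groups. FKBP10 encodes a prolyl isomerase of the endoplasmic reticulum that acts on collagen. Its CPM was 27.5 and 22.2 in wild type and 3.59 and 2.42 in the libraries labelled knockdown at 24 h, and 14.7, 15.3 and 14.2 against 4.81, 3.02 and 2.87 at 48 h. At 96 h it was 19.3, 17.1 and 17.9 against 12.5, 14.8 and 17.2. The ranges were far apart at 24 h and 48 h and overlapped at 96 h. The log2 fold changes were -3.05 (SE 0.27, adjusted p = 0.000263 by edgeR) and -2.04 (SE 0.21, adjusted p = 0.000236 by edgeR). The difference from wild type was not equal at the 3 times (edgeR adjusted p = 0.00756). It held 33.2% of the gene's counts summed over the 16 libraries, and the whole gene fell by a log2 fold change of -2.89 at 24 h.

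Among 120 members from cell cycle, mitosis and replication genes, 1 rose and 1 fell at 24 h, 1 rose and 4 fell at 48 h, and 3 fell at 96 h. The shares of the list that passed were 1.67%, 4.17% and 2.5%, beside 0.876%, 3.92% and 0.299% of all members, and at 24 h and 48 h below those of all transcripts. CENPV-203, of a centromere protein, fell at each time. It had 10.7 and 12.4 CPM in wild type against 4.84 and 6 in the libraries labelled knockdown at 24 h, 16, 16 and 16.9 against 7.17, 6.91 and 7.66 at 48 h, and 11.8, 14.3 and 12.7 against 6.92, 7.33 and 6.61 at 96 h. No library overlapped at any time, and the log2 fold changes were -1.09 (SE 0.14, adjusted p = 0.00267 by edgeR), -1.17 (SE 0.12, adjusted p = 0.000203 by edgeR) and -0.90 (SE 0.12, adjusted p = 0.00347 by edgeR). Its share of the gene passed at none of the 3 times, and the gene itself fell by -1.07, -0.90 and -0.86.

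NCAPG-205, of a condensin subunit, fell at 96 h from 19.2, 27.2 and 17.7 CPM to 11.4, 9.88 and 7.45 CPM. All 3 knockdown libraries lay below all 3 wild-type libraries (log2 fold change -1.16, SE 0.17, adjusted p = 0.00664 by edgeR), and the gene fell by -0.93. KNL1-203, of a kinetochore scaffold protein, went from 9.03, 12.8 and 9.73 to 6.21, 5.45 and 4.99 CPM at 96 h (log2 fold change -0.92, SE 0.16, adjusted p = 0.0167 by edgeR). That call did not hold without knockdown replicate 2 (edgeR adjusted p = 0.082), knockdown replicate 3 (0.0963) or wild-type replicate 2 (0.0684) of 96 h.

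In the 86 members of ribosomal protein and translation factor genes, 4 fell and 0 rose at 24 h, 10 fell and 1 rose at 48 h, and 0 passed at 96 h. These were 4.65% of the list at 24 h and 12.8% at 48 h, beside 2.57% and 7.38% of all transcripts. By share of the gene 0 of the 86 passed at 24 h or 48 h. Without knockdown replicate 3, 3 rose and 4 fell by share at 48 h (8.14%, beside 7.49% of all transcripts). EIF3G-215, of a subunit of initiation factor 3, had 15.7 and 16.3 CPM against 8.66 and 8.68 at 24 h, 19, 14.8 and 17.1 against 9.84, 8.06 and 8.65 at 48 h, and 16.6, 17.7 and 15.6 against 16, 13.9 and 14.0 at 96 h. Groups were apart at 24 h and 48 h and overlapped at 96 h. The log2 fold change was -0.94 (SE 0.11, adjusted p = 0.000582 by edgeR) at 48 h and -0.88 (SE 0.14, adjusted p = 0.00669 by edgeR) at 24 h, where the call was lost without the library labelled knockdown replicate 1 (edgeR adjusted p = 0.0608) or 2 (0.0719). RSL1D1-202, named after its values were seen, is a transcript of a nucleolar protein of ribosome production. It had 46.5 and 46.5 CPM against 27.3 and 27.5 at 24 h, 57.3, 54.9 and 59.3 against 31.8, 29.6 and 36.4 at 48 h, and 38.5, 40.9 and 39.4 against 36.2, 38.9 and 34.9 at 96 h. It fell by -0.76 at 24 h (SE 0.09, adjusted p = 0.00208 by edgeR) and -0.81 at 48 h (SE 0.08, adjusted p = 0.00015 by edgeR), and the effect differed between times (edgeR adjusted p = 0.0229).

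Members of hnRNP genes, which encode abundant nuclear RNA-binding proteins, passed at 48 h as falls only: 4 of 32 (12.5%) fell and 0 rose, beside 7.38% of all transcripts in either direction. HNRNPA1-205 had 302, 285 and 285 CPM in wild type and 177, 171 and 242 in knockdown (log2 fold change -0.56, SE 0.11, adjusted p = 0.00841 by edgeR). HNRNPA2B1-203 had 34.6, 36.6 and 25.4 CPM against 15.4, 12.1 and 20.8 (-1.0, SE 0.19, adjusted p = 0.00773 by edgeR). In each, replicate 3 was the knockdown library nearest to wild type. Without replicate 3 the log2 fold changes were -0.74 and -1.23, and 10 of the 32 (31.25%) fell, beside 16.6% of all transcripts in either direction. By share of the gene 0 of the 32 passed at 48 h. Without replicate 3, 2 rose and 6 fell by share (25%, beside 7.49% of all transcripts). Of 58 members from SR protein and other splicing regulator genes 1 rose and 1 fell at 48 h, and of 58 from core spliceosome genes 6 fell and 0 rose (3.45% and 10.3%).

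Members of interferon-stimulated genes that passed at 48 h were rises only, 3 of 19 (15.8%). IRF7-214, of a transcription factor that switches on interferon genes, had 0.759, 0.892 and 0.441 CPM in wild type against 2.77, 2.47 and 2.42 in knockdown (log2 fold change 1.87, SE 0.28, adjusted p = 0.00239 by edgeR). The gene rose by 1.63, and the share held by IRF7-214 was 4.72%, 5.98% and 3.12% against 6.37%, 5.42% and 4.76%, with overlap. Of 125 members from mitochondrial protein genes 1 rose and 6 fell at 48 h (5.6%), and of 79 from proteasome and ubiquitin genes 1 rose and 5 fell (7.59%), where 7.38% of all transcripts passed. None of the 6 members of genes for the decay machinery itself passed by CPM at 24 h, 48 h or 96 h.

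**Figure D2:**
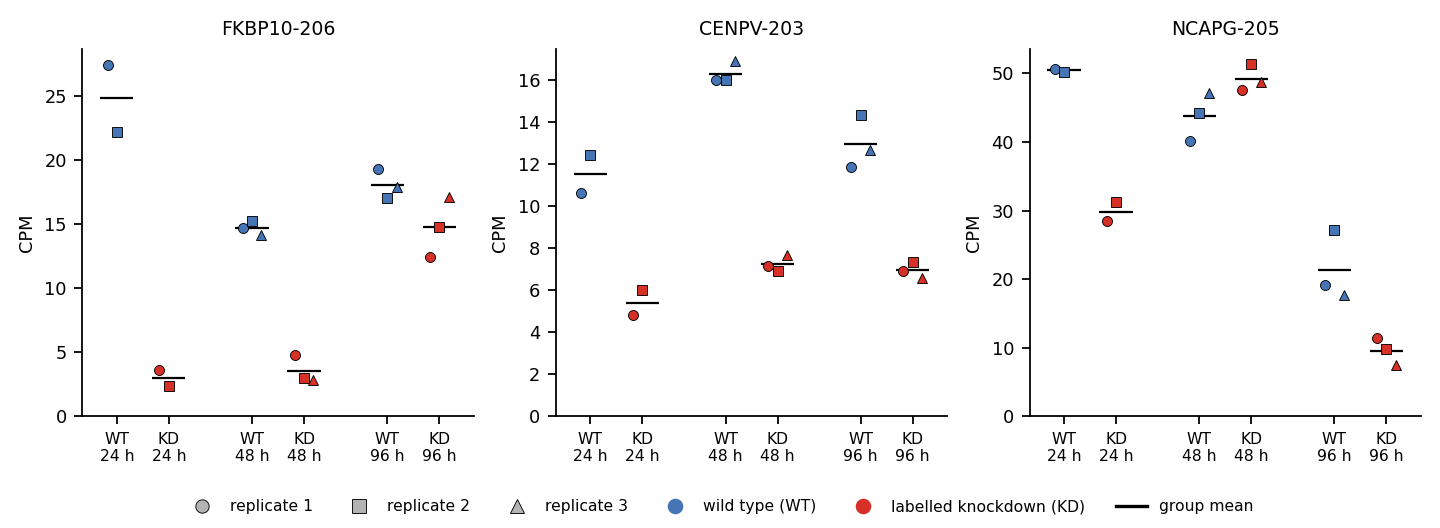
CPM per library (y axes) is drawn by genotype and time (x axes), with points for libraries and bars for means. The members shown passed by CPM in a comparison of libraries labelled knockdown with wild type at some time. FKBP10-206 and CENPV-203 are lower in every knockdown library of 24 h and 48 h than in every wild-type library of the same time.

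The share of a gene's counts says whether a member changed beyond its gene. It was tested for 4905 members of genes whose other transcripts also reached 20 counts in 3 libraries, with the gene's total count as offset in the same edgeR test. At 24 h 6 members (0.122%) passed, 4 rising and 2 falling, beside 0.173% of all 55567 transcripts tested. At 48 h 10 (0.204%) passed, 3 rising and 7 falling, beside 0.175%. At 96 h 1 passed (0.0204%, beside 0.0162%). At an unadjusted p under 0.05 in the same edgeR test the counts were 297, 547 and 196 of the 4905 members. Over all 55567 transcripts they were 3675, 7558 and 2147.

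SKP1-212 rose within its gene at 48 h. SKP1 is the adaptor of the SCF ubiquitin ligases. The share was 18.2%, 17.7% and 16.4% in wild type and 22.9%, 23.5% and 21.9% in knockdown, with replicate 3 beside its group. The log2 fold change of the share was 0.39 (SE 0.05, adjusted p = 0.012 by edgeR). At 24 h the shares were 26.2% and 24.6% in both genotypes, and at 96 h they were 20.9%, 21.8% and 20.2% against 21.6%, 23.0% and 22.3%. The CPM of SKP1-212 overlapped at 48 h (43.0, 39.1 and 41.8 against 42.4, 50.4 and 48.5), and the gene did not pass (log2 fold change -0.20, edgeR gene-level adjusted p = 0.0813).

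HAPLN3-202 rose in its gene as well. HAPLN3 encodes a link protein that joins hyaluronan and proteoglycans in the extracellular matrix. Its share was 25.5%, 23.1% and 21.6% in wild type and 41.9%, 36.0% and 38.8% in knockdown at 48 h (log2 fold change 0.73, SE 0.08, adjusted p = 0.00465 by edgeR). The CPM went from 5.37, 4.81 and 4.14 to 15.1, 13.0 and 12.2 (log2 fold change 1.49, SE 0.15, adjusted p = 0.000193 by edgeR). At 96 h the share was 58.8%, 56.0% and 63.6% against 68.8%, 68.7% and 73.2%, apart but not past the test. At 24 h it was 42.9% and 41.6% against 43.0% and 43.1%. Every library of 96 h was thus above every library of the earlier times.

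H2AFY-210 fell within its gene. H2AFY encodes macroH2A1, a histone variant with a large extra domain. The share was 10.2%, 8.60% and 9.65% in wild type and 3.85%, 4.15% and 5.29% in knockdown at 48 h (log2 fold change -1.10, SE 0.14, adjusted p = 0.0112 by edgeR). The CPM went from 32.5, 27.9 and 30.1 to 9.94, 10.5 and 15.7 (log2 fold change -1.32, SE 0.17, adjusted p = 0.00078 by edgeR), while the gene fell by -0.24. Replicate 3 was the highest knockdown library in both measures and still below wild type. At 96 h the share was 9.87%, 11.1% and 8.87% against 7.30%, 7.82% and 8.92%, with overlap.

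RAB35-206, of a small GTPase of endosome recycling, held 6.52%, 5.34% and 5.83% of its gene in wild type and 3.52%, 3.31% and 3.15% in knockdown at 48 h. The log2 fold change of the share was -0.82 (SE 0.12, adjusted p = 0.0226 by edgeR), lost without knockdown replicate 2 (edgeR adjusted p = 0.06) or wild-type replicate 1 (0.0658) of 48 h. CENPT-204 and CENPT-222, of a kinetochore protein, fell in share while their gene rose by a log2 fold change of 1.71. The share of CENPT-204 was 4.34%, 6.34% and 2.00% against 0.166%, 0.135% and 0.0117% (log2 fold change -5.27, SE 0.75, adjusted p = 0.0226 by edgeR; 0.0645 without knockdown replicate 2 of 48 h). CENPT-222 went from 2.50%, 3.29% and 1.51% to 0.261%, 0.485% and 0.492% (log2 fold change -2.56, SE 0.40, adjusted p = 0.0292 by edgeR), a call that 10 of the 16 omissions of a single library ended (edgeR adjusted p up to 0.0767, without knockdown replicate 1 of 48 h).

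The other 3 falls in share at 48 h were of members listed at 0 in all 3 knockdown libraries. TOM1L1-207, of an endosomal adaptor, had 1.27, 2.14 and 0.800 CPM in wild type, at least 56.7-fold above the floor of 3 counts over the knockdown group. REPIN1-205, of a zinc-finger protein, had 0.607, 0.784 and 0.386 CPM, at least 23.8-fold above, and PGPEP1-205, of a peptidase, had 0.243, 0.135 and 0.110 CPM, at least 6.43-fold above. TOM1L1-207 was back at 2.57, 4.08 and 2.27 CPM in knockdown at 96 h, against 2.21, 1.15 and 0.721 in wild type. A listed 0 can be an estimate that gave the reads to another transcript. For PGPEP1-205, 11 of the 16 omissions of a single library ended the call (edgeR adjusted p up to 0.0958, without knockdown replicate 2 of 48 h). REPIN1-205 and PGPEP1-205 were named after their values were seen, as was CENPT-204 among the shares.

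At 24 h BRD2-213 and NMT1-203 passed by share and were listed at 0 in both wild-type libraries. BRD2-213, of a bromodomain protein that binds acetylated histones, had 2.14 and 3.16 CPM in the libraries labelled knockdown, at least 48.6-fold above the floor of 3 counts over the wild-type group (edgeR adjusted p of the share = 0.0112). NMT1-203, of an enzyme that attaches myristate to proteins, had 0.979 and 1.29 CPM (at least 20.7-fold, edgeR adjusted p = 0.0164, and 0.0517 without wild-type replicate 2 of 24 h). In the other direction REPIN1-205 had 0.489 and 0.622 CPM in wild type and was listed at 0 in both libraries labelled knockdown (at least 14.0-fold lower, edgeR adjusted p = 0.0192, and 0.0533 without the library labelled knockdown replicate 1 of 24 h).

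**Figure D3:**
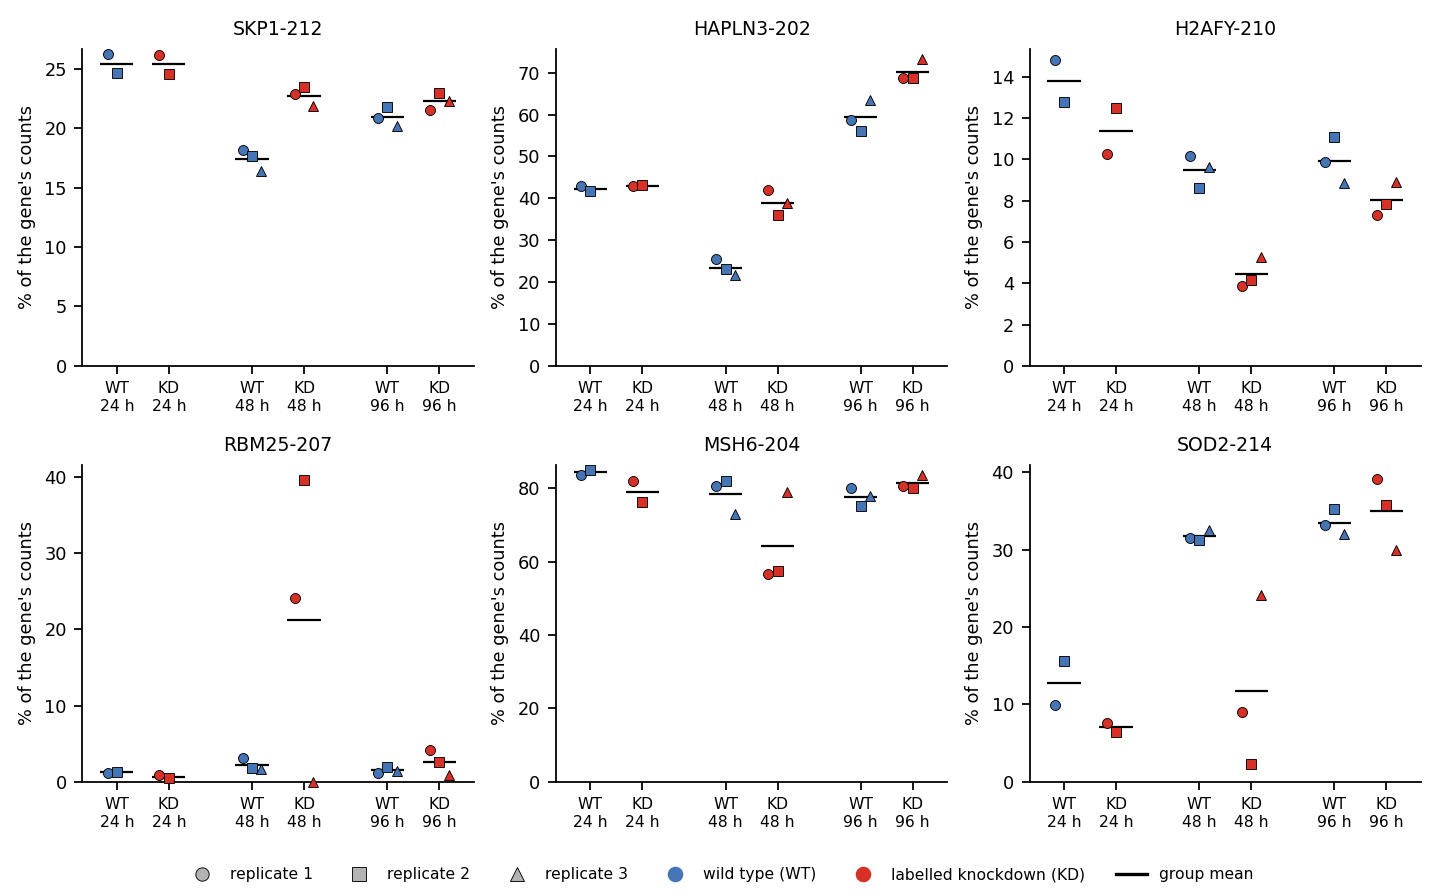
Percent of the gene's counts (y axes) is drawn for 6 members in each library (points) by genotype and time (x axes), with bars for group means. At 48 h replicate 3 of knockdown lies with its group for SKP1-212, HAPLN3-202 and H2AFY-210, and at 0 for RBM25-207.

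The counts at 48 h were several times larger without knockdown replicate 3. Without it 577 members (11.5%) passed by CPM, 184 rising and 393 falling, beside 16.6% of all transcripts, and 264 (5.38%) passed by share, 92 rising and 172 falling, beside 7.49%. In replicate 3 itself, 302 of the 577 lay beyond wild type on the same side as the other two libraries, 214 lay within the wild-type range and 61 lay beyond it on the other side. For the 264 by share the counts were 116, 101 and 47. Of the 577, 186 also passed with replicate 3 in the fit and 4 passed at 96 h, where 361 had the same sign and 216 the other. Of the 264 by share, 10 also passed with replicate 3 and 1 passed at 96 h, where 145 had the same sign and 119 the other. Such positions and signs were not counted over all transcripts, so whether they are particular to the members was not tested.

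RBM25-207 is a member of the gene for an SR-related splicing regulator. Its stop codon lies in a 105-base exon absent from protein-coding transcripts, at chr14:73088377-73088379. It had 7.25, 3.87 and 4.05 CPM in wild type at 48 h and 67.1, 120 and 0 CPM in knockdown, so replicates 1 and 2 were far above wild type and replicate 3 below it. The share was 3.18%, 1.77% and 1.64% against 24.2%, 39.6% and 0%. Without replicate 3 the share rose by 3.86 on the log2 scale (SE 0.55, adjusted p = 0.00328 by edgeR). With it the share did not pass (edgeR adjusted p = 0.304).

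MSH6-204, of a mismatch repair protein, held most of its gene. Its share was 80.5%, 82.1% and 73.1% in wild type and 56.6%, 57.6% and 78.9% in knockdown at 48 h, where replicate 3 was inside the wild-type range. Without it the log2 fold change of the share was -0.46 (SE 0.05, adjusted p = 0.00103 by edgeR) and with it the share did not pass (edgeR adjusted p = 0.259). The CPM was 76.1, 74.7 and 74.6 against 34.1, 34.5 and 53.9, and it passed with all 3 (log2 fold change -0.88, SE 0.14, adjusted p = 0.00363 by edgeR). SOD2-214, of the mitochondrial superoxide dismutase, had shares of 31.5%, 31.2% and 32.5% in wild type against 8.97%, 2.27% and 24.1% in knockdown (edgeR adjusted p = 0.00885 without replicate 3 and 0.294 with it).

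The genes of the decay pathway itself were compared at the gene level. Of 26 measured, 10 fell and 0 rose at 24 h, 15 fell and 2 rose at 48 h, and 3 fell and 0 rose at 96 h. These were 38.5%, 65.4% and 11.5% of the list, beside 17.6%, 33.2% and 10.5% of all genes, so the share at 96 h was near that of all genes. The 26 include DCP1A, which had at most 0.598 CPM in any library and passed at no time. The median log2 fold changes were -0.27, -0.23 and -0.10, beside -0.02, 0.06 and -0.01 over all genes. MAGOH, a core protein of the exon junction complex, had mean levels of 67.9 CPM in wild type against 42.4 in the libraries labelled knockdown at 24 h, then 83.8 against 58.2 at 48 h, then 43.3 against 34.8 at 96 h. It fell by log2 fold changes of -0.68, -0.52 and -0.31 (edgeR gene-level adjusted p = 6.29e-05, 2.71e-05 and 0.0105), and its paralog MAGOHB fell by -0.46, -0.42 and -0.48.

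EIF4A3, the helicase that anchors the junction complex, fell by -0.42 at 24 h and -0.43 at 48 h (edgeR gene-level adjusted p = 0.00458 and 0.000325). The translation termination factor genes ETF1 and GSPT1 fell at both times, by -0.47 and -0.54 at 24 h and by -0.49 and -0.48 at 48 h. UPF1 had log2 fold changes of -0.14 (edgeR gene-level adjusted p = 0.438), -0.26 (0.0229) and 0.00 (0.998). At 48 h its knockdown replicate 3 (165 CPM) lay inside the wild-type range (160 to 181). The 2 genes that rose at 48 h were UPF3A (0.27), which binds the junction complex, and the exonuclease gene XRN1 (0.29). UPF3A had 60.3, 57.1 and 59.1 CPM in wild type against 73.7, 81.7 and 57.0 in knockdown, so replicate 3 lay below wild type. For XRN1 every knockdown library of 48 h lay above every wild-type library. The counts depended on the scaling, with 1 rise and 4 falls at 24 h and 3 rises and 8 falls at 48 h under total-count scaling. Without 1 library they ranged from 5 to 14 at 24 h, lowest without knockdown replicate 2, and from 8 to 20 at 48 h, lowest without wild-type replicate 1, wild-type replicate 2 or knockdown replicate 1 of 48 h.

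Genes known from other work as targets of the pathway were counted too, 25 matched of 29. At 24 h 1 rose and 14 fell, at 48 h 4 rose and 10 fell, and at 96 h 2 rose and 3 fell. That is 60%, 56% and 20% of the 25, where 17.6%, 33.2% and 10.5% of all genes passed. UPP1, uridine phosphorylase, fell by -0.89 at 24 h and -0.67 at 48 h, and SNHG15, a small nucleolar RNA host gene, by -0.38 and -0.66. ATF3, a stress-induced transcription factor, fell at 24 h by -0.75 (edgeR gene-level adjusted p = 0.000246) and had -0.12 and 0.09 later. DDIT3, another stress-induced factor, fell by -0.77 at 24 h and rose by 0.67 at 48 h (edgeR gene-level adjusted p = 0.00672 and 0.00281).

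Members were also compared between times in wild type. From 24 h to 96 h 436 members (8.68%) changed by CPM, 180 rising and 256 falling, beside 13.7% of all transcripts, and 230 (4.69%) changed by share, 94 rising and 136 falling, beside 6.32%. By share, 4 members of ribosomal protein and translation factor genes rose and 11 of 86 fell, 3 of 58 of splicing regulator genes rose and 3 fell, and 4 of 32 of hnRNP genes rose and 2 fell. Those shares of the 3 lists were 17.4%, 10.3% and 18.8%. With wild-type replicate 1 of 24 h left out 257 changed by CPM and 123 by share, and with replicate 2 left out 277 and 117. Without wild-type replicate 3 of 96 h 139 changed by share. Without knockdown replicate 3 of 48 h, 554 changed by CPM and 294 by share, beside the 577 and 264 that passed with knockdown at 48 h in that fit. Only 2 libraries stand for wild type at 24 h.

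RPL22L1, a paralog of a large-subunit ribosomal protein gene, had a member that rose with time and another that fell. RPL22L1-204 held 31.9% and 32% of the gene at 24 h, 62.1%, 61.9% and 58.6% at 48 h, then 59.1%, 53.8% and 60.5% at 96 h (log2 fold change of the share from 24 h to 96 h 0.86, SE 0.05, adjusted p = 2.6e-06 by edgeR). RPL22L1-206 held 9.64% and 9.69%, then 1.09%, 0.933% and 1.11%, then 1.28%, 1.04% and 1.34% (-2.98, SE 0.19, adjusted p = 3.78e-06 by edgeR). The libraries labelled knockdown had the levels of their time, with 29.3% and 31.6% for RPL22L1-204 at 24 h.

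Other ribosomal protein members fell with time. RPLP0-214, of a stalk protein of the large subunit, held 23.9% and 24.9% of its gene at 24 h, 3.51%, 4.77% and 4.51% at 48 h, then 4.74%, 4.03% and 5.66% at 96 h (log2 fold change -2.34, SE 0.26, adjusted p = 0.00027 by edgeR). RPL13A-210, of another large-subunit protein, held 28.8% and 28.4%, then 5.90%, 5.85% and 7.11%, then 4.5%, 5.71% and 4.66% (-2.53, SE 0.24, adjusted p = 9.19e-05 by edgeR). In both, the change lay between 24 h and 48 h and no library of 24 h overlapped a later one. NDUFS7-205, of a subunit of respiratory complex I, had 23.2 and 23.4 CPM in wild type at 24 h and was listed at 0 in all 12 later libraries, at least 1080-fold lower at 96 h. Of the members, 3 (0.0597%) had at least 20 counts in all libraries of 24 h and 0 in all later ones, beside 0.0514% of all transcripts.

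Splicing factor members went both ways. SRSF7-208, of an SR protein, held 11.3% and 10.3% of its gene at 24 h, then 12.1%, 11.4% and 14.0%, then 16.9%, 20.4% and 19.7% (log2 fold change 0.81, SE 0.12, adjusted p = 0.00215 by edgeR). SRSF3-203, of another SR protein, held 29% and 31.5%, then 16.7%, 18.6% and 14.3%, then 19.4%, 15.0% and 19.2% (-0.76, SE 0.13, adjusted p = 0.00595 by edgeR).

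HNRNPL-202 held 9.82% and 11.4% of its gene at 24 h, 6.74%, 6.19% and 7.59% at 48 h, then 2.84%, 5.16% and 2.79% at 96 h (log2 fold change -1.56, SE 0.29, adjusted p = 0.00732 by edgeR). Without wild-type replicate 2 of 24 h neither SRSF3-203 nor HNRNPL-202 passed (edgeR adjusted p = 0.054 and 0.0545). HNRNPL-202, SRSF3-203 and RPL13A-210 were chosen after their values were seen.

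**Figure D4:**
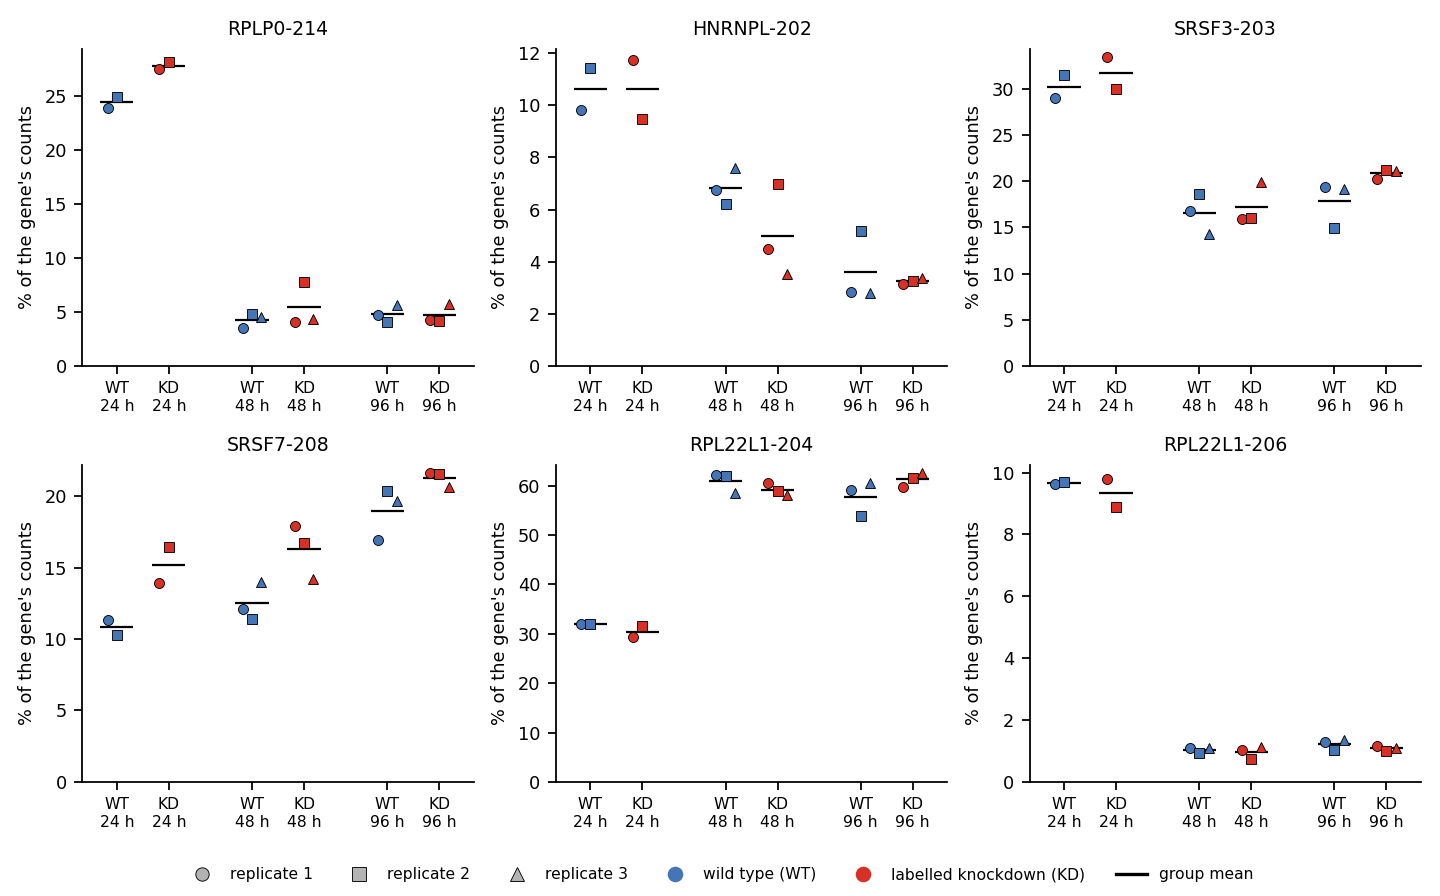
Percent of the gene's counts (y axes) is drawn for 6 members of splicing factor and ribosomal protein genes in each library (points) by genotype and time (x axes), with bars for group means. RPLP0-214 and RPL22L1-206 are high in the 4 libraries of 24 h and low in the 12 later ones, and RPL22L1-204 is the reverse.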

How the data were processed

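Strand-specific sequencing of polyadenylated RNA gave 16 libraries in 6 groups. The deposited table holds estimated counts per transcript, written by the authors as whole numbers. Kallisto, DESeq2 and hg19 are named, without versions, per the submitters' processing notes, and the transcript index is not given in the sources used here. Transcript types, names, stop codons, positions (GRCh38) and sequences come from GENCODE 29 by transcript ID, which matched 156584 of 166096 transcripts, and the 9512 unmatched held 2.75% to 3.40% of each library's counts and were left out. No other per-sample columns were in the table (0).

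Levels and shares were tested with the quasi-likelihood test of edgeR 4.0.16 in R 4.3.3, fitted to all 16 libraries with a mean for each group and 10 residual degrees of freedom, scaling by trimmed means of M-values, and Benjamini-Hochberg adjustment over all transcripts or genes tested at a threshold of 0.05. Transcripts needed 20 counts in 3 libraries. The tests were checked on simulated data. Alternatives used limma 3.58.1, DESeq2 1.42.0, other scalings and filters, a replicate block and each library left out. Fold changes are on the log2 scale, and the estimated counts carry an assignment error that none of these tests includes. Depth was 28391784 to 51853876 counts per library.

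The members and gene lists were chosen with earlier results of these data known. Named members were the largest passing changes without overlap (at least 1 CPM and, for shares, at least 5% of the gene), the highest members, up to 4 per gene list with the lowest p, and those said in the text to be chosen after their values were seen, which also include PRR11-203, MYOF-205, DCAF4-207, ARHGAP4-205 and NFATC3-206 in the closing section. Some items that meet these rules are not reported here.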

Additional observations from a re-analysis of the deposited data

Results flagged for a closer look

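Libraries labelled knockdown were compared with wild type in CPM at 24 h, 48 h and 96 h. By edgeR's quasi-likelihood test that difference was not equal at these times for 13 members (0.259%, beside 0.524% of all transcripts). Among them the adjusted p-values of that edgeR test were 0.00756 for FKBP10-206 and TOM1L1-207, 0.0163 for BRD2-213, 0.0167 for PRR11-203, 0.0201 for MYOF-205, 0.0215 for REPIN1-205, 0.0229 for RSL1D1-202, 0.025 for NMT1-203, 0.0308 for DCAF4-207, 0.0418 for NFATC3-206, 0.0466 for ARHGAP4-205 and 0.0475 for SBDS-202. TOM1L1-207, BRD2-213, REPIN1-205, NMT1-203, DCAF4-207, NFATC3-206 and SBDS-202 were listed at 0 in all libraries of at least 1 group. PRR11-203, of a cell cycle protein, had 42.8 and 41.5 CPM in wild type against 30.1 and 30.0 at 24 h, 36.5, 35.6 and 38.7 against 49.4, 55.9 and 44.0 at 48 h, and 22.2, 21.2 and 19.2 against 15.1, 15.9 and 13.4 at 96 h. Its libraries labelled knockdown were thus lower at 24 h and 96 h and higher at 48 h.

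By share of the gene the difference from wild type changed between times for 3 members (0.0612%, beside 0.0558%). The edgeR adjusted p-values were 0.0335 for TOM1L1-207 and 0.0413 for BRD2-213 and REPIN1-205. These 3 also rest on groups listed at 0.

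At the gene level the difference from wild type changed between times for 9.44% of genes. Among the genes of the decay pathway the edgeR adjusted p-values were 0.0385 for DHX34, 0.039 for RNPS1 and 0.0469 for GSPT1. Among known targets they were 0.00109 for GADD45B, 0.00149 for UPP1, 0.00272 for SNHG15, 0.00286 for DDIT3, 0.003 for PPP1R15A, 0.00449 for ATF3, 0.00464 for ASNS, 0.00529 for BAG1, 0.0146 for TBL2, 0.0263 for GADD45A, 0.0415 for CARS and 0.0463 for CDKN1A. For NORAD it was 8.28e-10.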

How the results depend on the processing

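Counts of members called depended on the test. By CPM at 24 h, 48 h and 96 h DESeq2 called 160, 450 and 84, a filter of 1 count in 3 libraries 25, 131 and 9, and fits on the libraries of 1 time 0, 1 and 8. DESeq2 called 153 for the difference between times and 702 for wild type from 24 h to 96 h. By share limma-trend called 12, 22 and 4, and 9 between times, diffSpliceDGE 41, 97 and 37, fits on 1 time 0, 0 and 0, a protein-coding denominator 2 at 96 h, and the filter of 1 count 1 between times. Genes of the decay pathway called were 5 at 24 h and 11 at 48 h with total-count scaling, and 8 at 48 h and 5 at 96 h in fits on 1 time. With the replicate number as a replicate block, 2, 38 and 1 members were called by CPM and 0, 0 and 0 by share, 0 between times by either, and 9 decay pathway genes at 48 h. Deviations from the group means had correlations of -0.23 to 0.02 between same-numbered libraries. With 2 or 3 libraries in a group, such values cannot show whether same-numbered libraries were prepared together. Leaving out 1 library gave 19 to 77, 100 to 577 and 4 to 23 members by CPM, 5 to 17, 8 to 264 and 1 to 2 by share, 5 to 14, 8 to 20 and 2 to 5 decay pathway genes, 4 to 123 (CPM) and 0 to 36 (share) between times, and 257 to 554 (CPM) and 117 to 294 (share) in wild type over time. The highest counts by CPM came without knockdown replicate 3 of 48 h. With abundance-dependent scaling the log2 fold change of RACK1-224, which fell by CPM at 24 h (-0.38) and 48 h (-0.25), was 0.0049 and 0.079. The causes were not tested. DiffSpliceDGE gave no test between times and the block none for wild type over time. Of 5022 members 3247 had at least 50 counts in 3 libraries, and low counts limit the rest.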
